A study of Homo sapiens with 12 samples.

Results

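The DNA replication genes examined here are 39 human genes that act in origin licensing, helicase activation, DNA synthesis, clamp loading, Okazaki fragment joining, deoxynucleotide supply and replication-coupled chromatin upkeep. They were listed by symbol with no threshold on a measured value, although earlier results of these data were known, and all 39 were found among the 16491 entries of the HCC70 table, the 18217 entries of the MDA-MB468 table for XY018 and ATV, and the 57909 entries of the MDA-MB468 table for GSK805. HCC70 and MDA-MB468 are established lines of triple-negative breast cancer (TNBC), that is, breast carcinoma without oestrogen receptor, progesterone receptor or HER2 amplification. The study asked which programs depend on the nuclear receptor RORγ in such cells, using its antagonists XY018 and GSK805 and the statin atorvastatin (ATV), which blocks HMG-CoA reductase in cholesterol synthesis. RNA was sequenced in 12 libraries after 24 h of treatment. Each line had a vehicle library, XY018 at 1.25 µM, XY018 at 2.5 µM, ATV at 1.25 µM, and XY018 together with ATV, each at 1.25 µM. A separate pair of MDA-MB468 libraries held a further vehicle and GSK805 at 2.5 µM. The labels name no engineered allele. They give insulin in the medium of MDA-MB468 and not of HCC70, while the study's methods name none for MDA-MB468. Each condition had 1 library, so the differences below have no replicate check and no test was run.

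DNA replication is prepared in G1, when the origin recognition complex (ORC1 to ORC6) together with CDC6 and CDT1 loads the ring of MCM2 to MCM7 onto origins. In S phase CDC45 and the GINS tetramer join that ring to form the active helicase, polymerase α-primase lays down primers, polymerases ε and δ copy the strands with the sliding clamp PCNA that the RFC complex loads, RPA covers single-stranded DNA, and FEN1 and DNA ligase I finish the lagging strand. Most of these genes are known targets of E2F transcription factors, which the retinoblastoma protein restrains, and they are transcribed most strongly around the passage from G1 to S phase.

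Values are FPKM, fragments scaled to transcript length and library size, so levels of different genes are compared per length. Each log2 ratio compares a treated library with the vehicle library of its own table after 0.1 FPKM was added to both, and only genes that reached 1 FPKM in either of the pair entered. A gene is called lower or higher past 1.5-fold, a log2 ratio of 0.58 in either direction. All 39 members passed the 1 FPKM filter in every comparison. The spacing of low FPKM values put the depth at 9030000 to 9960000 fragments per HCC70 library, 17600000 to 19400000 per library of XY018 and ATV in MDA-MB468. The GSK805 pair was at 8340000 and 8640000. A member rested on an estimated 74 to 2787 fragments in HCC70, 53 to 5344 in the larger MDA-MB468 set and 49 to 6306 in the GSK805 pair. Intervals in brackets are at the 95% level and cover counting error only. They were computed for the members only, so counts of intervals above or below 0 have no share of all genes beside them.

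The lines were checked against markers. All 5 epithelial markers (EPCAM, CDH1, KRT8, KRT18, KRT19) were at 1 FPKM or above in every library, and COL3A1 of the fibroblast list and VWF of the endothelial list were under 0.1 FPKM in every library. Of the receptors, PGR was listed at 0 in the MDA-MB468 libraries, and ESR1 was at most 0.640 FPKM in HCC70 and 0.430 to 0.670 FPKM in the MDA-MB468 libraries of XY018 and ATV, but at 1.77 FPKM in the GSK805 vehicle and 5.67 with GSK805. ERBB2 was at 25.6 FPKM in the vehicle of each line and 34.9 at 2.5 µM XY018 in MDA-MB468, and at 35.2 and 57.7 FPKM in the GSK805 pair. The summed epithelial markers were themselves lower with XY018 in MDA-MB468, at 2824 FPKM in the vehicle, 2677 with ATV and 1811 to 2120 in the 3 libraries with XY018. The basal list (KRT5, KRT14, KRT17, EGFR, TP63) summed to 1180 FPKM in the same vehicle, 1133 with ATV and 753 to 942 with XY018, with KRT14 at -3.10 and KRT5 at -1.48 on the log2 scale at 2.5 µM, and to 1095, 929 and 532 to 700 FPKM in HCC70. CD14, a monocyte marker, was at 17.9 FPKM in the MDA-MB468 vehicle, 15.8 with ATV and 6.16 to 8.94 with XY018, at 93.7 and 51.8 FPKM in the GSK805 pair, and at 170 FPKM in the HCC70 vehicle, 171 with ATV and 317 to 419 with XY018. The other immune markers that reached 1 FPKM did not follow CD14. With XY018 in HCC70 their log2 ratios were -0.40 to -0.15, against 0.90 to 1.30 for CD14. In MDA-MB468 they were -0.05 to 0.73, against -1.52 to -0.99 for CD14. The fibroblast list summed to 3.86 to 17.8 FPKM and the endothelial list to at most 3.52 FPKM. Most of the fibroblast sum was COL1A1, at 3.84 to 17.2 FPKM. Its log2 ratio with XY018 was 0.72 to 0.76 in MDA-MB468 and -0.21 to 0.04 in HCC70, and with GSK805 it was 0.72. CDH5 of the endothelial list was at 1.64 to 2.28 FPKM with XY018 in HCC70, log2 ratios of 2.31 to 2.77 to vehicle. It was at 0.17 FPKM with ATV there and at most 0.03 FPKM in the MDA-MB468 libraries. PECAM1 was at 0.93 to 1.21 FPKM in HCC70. In MDA-MB468 the MTRNR2L pseudogene family, which resembles mitochondrial RNA, took 1.91% of summed FPKM in the vehicle and 3.43 to 4.28% with XY018. Mitochondrial transcripts took 51.5% of the GSK805 vehicle and 56.0% of its treated library, and RN7SL1, a noncoding RNA of the signal recognition particle, was at 1942 and 715 FPKM there. The part of these shifts in the values below was not tested. Over the names listed in all 3 tables, the members held 0.321% of summed FPKM in the MDA-MB468 vehicle and 0.179% at 2.5 µM XY018, and 0.327% and 0.187% when the MTRNR2L family was left out. In bulk RNA, fewer cells in S phase and less RNA of these genes per cell cannot be told apart.

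Most replication genes were lower in MDA-MB468 treated with XY018, many were lower with GSK805, and none was past 1.5-fold at either XY018 dose in HCC70. With XY018 at 2.5 µM in MDA-MB468, 25 of 39 members were lower past 1.5-fold and 0 higher, where 14.5% of all genes compared were lower and 14.1% higher. The members' median log2 ratio was -0.75, beside 0.00 for all genes. At 1.25 µM, 16 members were lower (8.38% of all genes) and 0 higher (9.73%), with a median of -0.54. With XY018 plus ATV, 22 were lower (12.2% of all genes) and 0 higher (13.1%), with a median of -0.67. These 3 libraries share 1 vehicle library, so the counts are not independent of each other. With GSK805, read against its own vehicle, 20 members were lower (16.6% of all genes) and 2 higher (17.6%), with a median of -0.64. The GSK805 table lists more genes than the others, and over the names that all 3 tables share, 12.5% were lower and 13.4% higher.

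The summed level of the 39 genes shows the same order. It was 1354 FPKM in the MDA-MB468 vehicle, 1268 with ATV, 887 and 785 with XY018 at 1.25 and 2.5 µM, and 848 with XY018 plus ATV. In the GSK805 pair it was 1921 FPKM in the vehicle and 1333 with GSK805. In HCC70 the sum stayed between 1249 and 1307 FPKM over all 5 libraries.

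**Figure D1:**
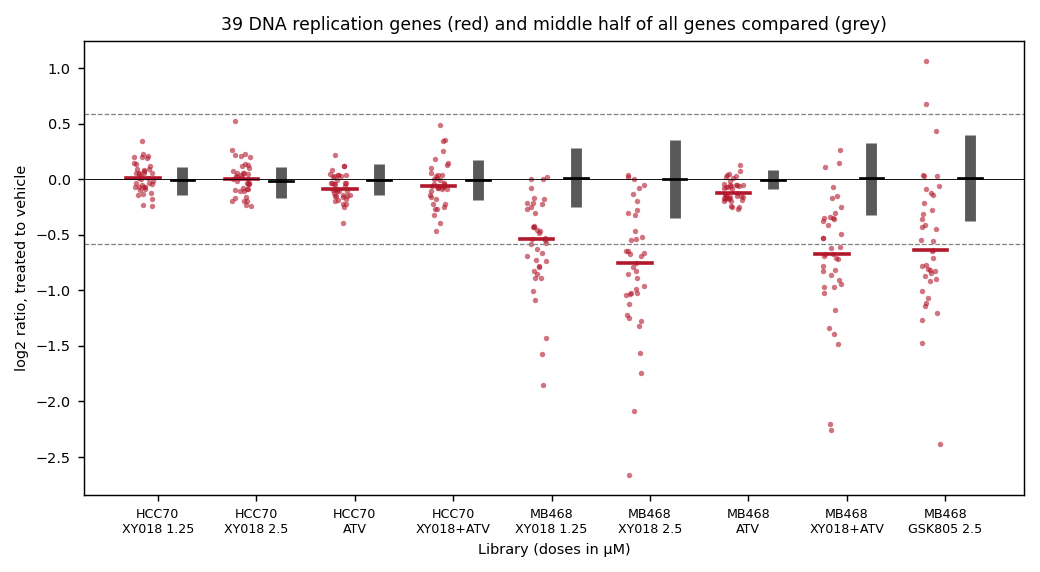
Log2 ratio of each of the 39 members to the vehicle of its own table (red points, with a red bar at the median), 1 column per treated library (doses in µM), beside the median and interquartile range of all genes compared (black bar and grey block). Dashed lines mark 1.5-fold. Members cluster around 0 in HCC70 and with ATV, and lie mostly below 0 in the MDA-MB468 libraries with XY018 (medians -0.54, -0.75 and -0.67) and with GSK805 (median -0.64).

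**Figure D2:**
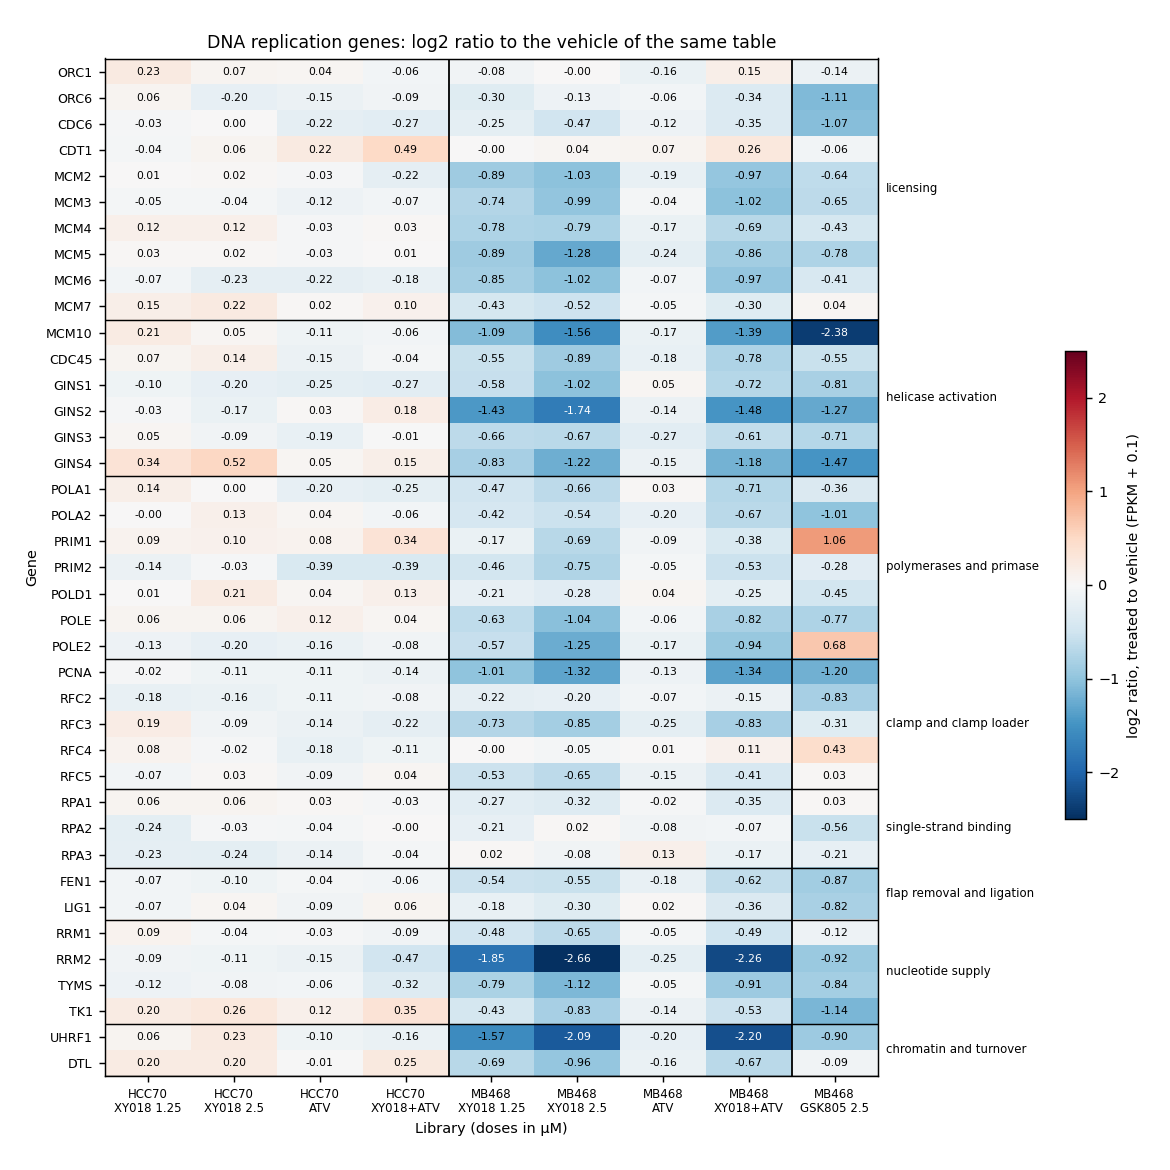
Log2 ratio of every member (rows, grouped by role) in every treated library (columns, doses in µM) to the vehicle of the same table, with blue for lower and red for higher. RRM2 and UHRF1 are the darkest rows with XY018 in MDA-MB468, MCM10 is the darkest cell with GSK805 at -2.38, and PRIM1 at 1.06 is its reddest.

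The dose order was regular in MDA-MB468. For 33 of 39 members the vehicle lay above 1.25 µM and 1.25 µM above 2.5 µM, an order that 35.3% of all genes showed, and 0 members showed the opposite order, which 33.6% of all genes did. The 6 members out of that order were ORC1, ORC6, CDT1, RFC2, RPA2 and RPA3. All 3 libraries with XY018 lay below both libraries without it for 34 members (35.8% of all genes) and above both for 0 (37.2%). The 5 members without that separation were ORC1, CDT1, RFC4, RPA2 and RPA3. Between the doses themselves the step was small, with a median log2 ratio of -0.18 for 2.5 against 1.25 µM, and only RRM2 and POLE2 were lower past 1.5-fold (1.73% of all genes) while 0 were higher (1.03%). The counting interval of that step lay below 0 for 23 members and above 0 for 1, RPA2. The same step in HCC70 had a median of 0.00, with 0 members lower (1.36% of all genes) and 0 higher (1.17%).

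Sequence near the gene start was compared as a feature that the choice of members did not use. RefSeq windows on GRCh38.p14, from 250 bases before to 50 bases after the start, were at hand for 34 of the 39 members. The E2F words TTTCCCGC, TTTCGCGC, TTTGCCGC and TTTGGCGC, searched on both strands, were in 19 of these 34 windows (55.9%), against 908 of 27305 windows (3.33%) over all genes and 5.53% over genes at 1 FPKM or above in the MDA-MB468 vehicle. CCAAT, the word read by NF-Y, was in 20 of 34 (58.8%), against 35.7% of all windows, and TTTGAA, the CHR word of genes that peak in G2 and mitosis, was in 1 of 34 (RRM1, 2.94%), against 15.4%. The 19 members with an E2F word had a median log2 ratio of -0.99 with XY018 at 2.5 µM in MDA-MB468. Of these, 14 were lower past 1.5-fold, and the 15 without had a median of -0.65 with 8 lower. The split by CCAAT was much alike. The 20 members with it had a median of -0.93 with 15 lower, and the 14 without had -0.61 with 7 lower. RRM2 and MCM10, among the most reduced of all, were in the group without an E2F word. No match says only that these letters are absent from this window, and a match is not evidence of binding. The windows below show the word in capitals, read 5′ to 3′ on the strand of the gene, for RRM2, the most reduced member, for 4 further members that were lower past 1.5-fold with XY018 in MDA-MB468, and for CDT1, which has an E2F word and was not lower. All 6 were picked with their values known.
RRM2, chr2:10122661-10122690, plus strand, CCAAT starting 66 bases before the gene start: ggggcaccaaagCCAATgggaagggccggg
UHRF1, chr19:4909476-4909505, plus strand, E2F word starting 14 bases before the gene start: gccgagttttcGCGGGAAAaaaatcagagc
GINS2, chr16:85688967-85688996, minus strand, E2F word starting 31 bases before the gene start: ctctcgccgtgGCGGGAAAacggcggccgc
PCNA, chr20:5126663-5126692, minus strand, E2F word starting 59 bases before the gene start: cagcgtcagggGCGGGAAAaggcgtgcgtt
MCM6, chr2:135876511-135876540, minus strand, E2F word starting 86 bases before the gene start: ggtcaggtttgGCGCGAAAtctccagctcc
CDT1, chr16:88803743-88803772, plus strand, E2F word starting 35 bases before the gene start: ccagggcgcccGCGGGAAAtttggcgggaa
UHRF1, GINS2, PCNA and CDT1 carry the same 8 letters in capitals, and their log2 ratios at 2.5 µM XY018 in MDA-MB468 were -2.09, -1.74, -1.32 and 0.04.

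Among the 10 licensing genes, the MCM ring subunits and the loading factors behaved differently. With XY018 at 2.5 µM in MDA-MB468, 5 of the 10 were lower past 1.5-fold and 0 higher, with a median of -0.65, and those 5 were MCM2, MCM3, MCM4, MCM5 and MCM6. MCM5 was at 45.3 FPKM in the vehicle, 38.4 with ATV, 24.4 and 18.6 with XY018 at 1.25 and 2.5 µM, and 24.9 with XY018 plus ATV, a log2 ratio of -1.28 (-1.39 to -1.19) at 2.5 µM. MCM6 was at 37.7 FPKM in the vehicle, 35.9 with ATV, 20.8 and 18.6 at the rising doses, and 19.2 with both compounds. In both genes the libraries with XY018 lay well below the other pair. MCM7 was the least reduced subunit, at 106 FPKM in the vehicle and 74.2 at 2.5 µM, a log2 ratio of -0.52, so that the 6 subunits spanned -1.28 to -0.52.

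The RNA of the genes whose products load the ring moved less with XY018. CDC6, the ATPase that recruits CDT1 with the ring, was at 15.9 FPKM in the MDA-MB468 vehicle, 14.7 with ATV, 13.4 and 11.5 with XY018 at 1.25 and 2.5 µM, and 12.4 with XY018 plus ATV. Its log2 ratio at 2.5 µM was -0.47 (-0.59 to -0.35), short of 1.5-fold. CDT1, which brings MCM2 to MCM7 to the origin, was at 59.0, 62.0, 59.0, 60.6 and 70.7 FPKM in the same order of libraries. It was highest with both compounds, where its log2 ratio was 0.26 (0.19 to 0.33). ORC1, the largest origin recognition subunit, was at 12.0, 10.8, 11.4, 12.0 and 13.4 FPKM in that order, also highest with both compounds at a log2 ratio of 0.15 (0.01 to 0.30). ORC6 was at 10.4 FPKM in the vehicle and 9.52 at 2.5 µM XY018, a difference within counting error (-0.37 to 0.10).

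With GSK805 the licensing genes ranked differently. Again 5 of the 10 were lower past 1.5-fold, with a median of -0.53, but these were ORC6, CDC6, MCM2, MCM3 and MCM5. CDC6 stood at 40.8 FPKM in the GSK805 vehicle and 19.4 with GSK805, a log2 ratio of -1.07 (-1.20 to -0.94), and ORC6 at 11.5 and 5.27, a ratio of -1.11 (-1.58 to -0.69) from 64 estimated fragments in the treated library. Against the vehicle of the XY018 experiment CDC6 turned to 0.28, where the median of all genes was 0.58. Both had a lower ratio than with XY018 at the same dose, with a difference, XY018 minus GSK805, of 0.60 (0.43 to 0.78) for CDC6 and 0.98 (0.49 to 1.46) for ORC6. MCM7 was at 125 and 129 FPKM, a log2 ratio of 0.04 (-0.04 to 0.13), whereas with XY018 its interval lay below 0. CDT1 was at 98.2 and 93.9 FPKM.

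In HCC70 the licensing genes barely differed from the vehicle. MCM5 lay between 75.1 and 77.9 FPKM in all 5 libraries. MCM6 had one of the 3 lowest median ratios of any member over the HCC70 libraries with XY018, at 29.7 FPKM in the vehicle, 25.4 with ATV, 28.2 and 25.3 with XY018 at 1.25 and 2.5 µM, and 26.1 with both. CDC6 was at 18.0, 15.4, 17.6, 18.1 and 15.0 FPKM in that order, lower in the 2 libraries that held ATV. CDT1 was at 44.6, 52.0, 43.4, 46.5 and 62.8 FPKM, highest with both compounds as in MDA-MB468, with a log2 ratio of 0.49 (0.38 to 0.61) to vehicle. ORC1 was at 9.98, 10.2, 11.7, 10.5 and 9.58 FPKM.

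All 6 genes of helicase activation were lower past 1.5-fold with XY018 at 2.5 µM in MDA-MB468, with a median of -1.12. GINS2 was at 31.2 FPKM in the vehicle, 28.2 with ATV, 11.6 and 9.29 with XY018 at 1.25 and 2.5 µM, and 11.1 with both, a log2 ratio of -1.74 (-1.91 to -1.59) at 2.5 µM. GINS4 was at 15.8, 14.2, 8.85, 6.73 and 6.93 FPKM in that order, a ratio of -1.22 (-1.40 to -1.07). The 4 subunits of this tetramer, which bridges CDC45 and the MCM ring, spanned -1.74 to -0.67, with GINS3 the least reduced. GINS1 was at 9.02, 9.37, 6.01, 4.39 and 5.42 FPKM.

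MCM10, which helps the assembled helicase to open the origin, was at 6.04 FPKM in the MDA-MB468 vehicle, 5.36 with ATV, 2.78 and 1.98 with XY018 at 1.25 and 2.5 µM, and 2.25 with both. Its log2 ratio at 2.5 µM was -1.56 (-1.87 to -1.35). It had the lowest ratio of any member with GSK805, at 9.71 FPKM in the vehicle and 1.79 with the compound, a log2 ratio of -2.38 (-2.84 to -2.06). CDC45 was lower with XY018 at -0.89 (-1.09 to -0.70) and, at -0.55, short of 1.5-fold with GSK805, while the other 5 genes of this role were lower past 1.5-fold with GSK805, with a role median of -1.04.

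In HCC70 the helicase genes spread in both directions. GINS4 was far lower in this line than in MDA-MB468, at 2.05 FPKM in the vehicle, 2.12 with ATV, 2.62 and 2.98 with XY018 at 1.25 and 2.5 µM, and 2.28 with both. It was highest at 2.5 µM, with the largest positive log2 ratio of any member in HCC70, 0.52 (0.10 to 0.99), from 74 estimated fragments in the vehicle. GINS1 lay below its vehicle in each treated library, at 9.06, 7.59, 8.44, 7.90 and 7.49 FPKM in the same order. Its interval included 0 at 1.25 µM (-0.35 to 0.15) and 2.5 µM XY018 (-0.45 to 0.05). MCM10 was at 13.8, 12.8, 16.0, 14.3 and 13.3 FPKM, with no separation between libraries with and without XY018.

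Of the 7 polymerase and primase genes, 5 were lower past 1.5-fold with XY018 at 2.5 µM in MDA-MB468 and 0 higher, with a median of -0.69. POLE and POLE2, subunits of the leading-strand polymerase ε, had log2 ratios of -1.04 (-1.16 to -0.95) and -1.25 (-1.77 to -0.82). POLE was at 15.2 FPKM in the vehicle, 14.6 with ATV, 9.82 and 7.34 with XY018 at 1.25 and 2.5 µM, and 8.58 with both. POLD1, the catalytic subunit of the lagging-strand polymerase δ, was at 34.1 FPKM in the vehicle and 28.1 at 2.5 µM, a ratio of -0.28. The 4 subunits of polymerase α-primase stayed close together, from -0.75 for PRIM2 to -0.54 for POLA2.

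The primase genes were read in both antagonist experiments. PRIM2, the regulatory subunit, was at 11.0, 10.6, 7.93, 6.49 and 7.56 FPKM in MDA-MB468 with vehicle, ATV, XY018 at 1.25 µM, XY018 at 2.5 µM and both. It was at 7.29 FPKM in the GSK805 vehicle and 5.99 with GSK805, and in HCC70 at 10.0, 7.62, 9.07, 9.77 and 7.62 FPKM in the same order as in MDA-MB468, lowest in the pair that held ATV. PRIM1, the catalytic primase, was at 16.7, 15.7, 14.9, 10.4 and 12.8 FPKM in MDA-MB468 with XY018 or ATV. With GSK805 it was higher, at 16.4 FPKM in the vehicle and 34.3 in the treated library, a log2 ratio of 1.06 (0.80 to 1.34). POLE2 was the only other member higher past 1.5-fold with GSK805, at 3.96 and 6.41 FPKM, a ratio of 0.68 (0.18 to 1.25) from an estimated 49 fragments in that vehicle. On the same strand, other annotated genes cover 25.4% of the exon bases of PRIM1, 49.7% of PRIM2 and 55.8% of POLA2. On the opposite strand, HSD17B6 covers 8.64% of PRIM1, and noncoding genes cover 32.4% of MCM2, 30.4% of GINS4 and 14.4% of GINS3. Reads of these neighbours could be counted with the members. POLA2 was lower with GSK805 at -1.01 (-1.19 to -0.84) and POLE at -0.77. Against the vehicle of the XY018 experiment POLE turned to 0.23, where the median of all genes was 0.58.

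PCNA was the most abundant member in 11 of the 12 libraries, the exception being GSK805, where MCM4 led at 145 FPKM. It was at 223 FPKM in the MDA-MB468 vehicle, 204 with ATV, 111 and 89.4 with XY018 at 1.25 and 2.5 µM, and 88.1 with both. GSK805 gave nearly the same ratio, from 227 to 98.4 FPKM, at -1.20 (-1.32 to -1.09) beside -1.32 (-1.39 to -1.24) for XY018 at the same dose. The difference between these ratios, -0.11, had a counting interval of -0.25 to 0.02. In HCC70 PCNA lay between 133 and 146 FPKM.

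The genes of the 4 small subunits of the clamp loader did not move as a unit. RFC3 was at 13.4 FPKM in the MDA-MB468 vehicle, 11.3 with ATV, 8.06 and 7.38 with XY018 at 1.25 and 2.5 µM, and 7.52 with both, a log2 ratio of -0.85 (-1.07 to -0.66) at 2.5 µM. RFC5 was also lower past 1.5-fold, at -0.65. RFC4 was at 20.1, 20.3, 20.0, 19.4 and 21.7 FPKM in the same order, with no difference beyond counting error, and RFC2 was at 36.7 FPKM in the vehicle and 32.0 at 2.5 µM. With GSK805 the subunits ranked differently. RFC2 was lower at -0.83 (-0.99 to -0.68). Against the vehicle of the XY018 experiment it was at 0.15, where the median of all genes was 0.58. RFC4 was at 32.5 and 43.9 FPKM with a log2 ratio of 0.43 (0.22 to 0.65), and RFC3 was at 9.75 and 7.82 FPKM with an interval that included 0. In HCC70 RFC3 was at 21.9, 19.8, 24.9, 20.6 and 18.8 FPKM with vehicle, ATV, XY018 at 1.25 µM, XY018 at 2.5 µM and both, and RFC4 at 38.6, 34.0, 40.9, 38.1 and 35.7 FPKM.

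None of the 3 RPA genes was past 1.5-fold in any comparison with vehicle. RPA3, the smallest subunit, was at 10.1, 11.0, 10.2, 9.49 and 8.91 FPKM in MDA-MB468 with vehicle, ATV, XY018 at 1.25 µM, XY018 at 2.5 µM and both, and at 16.6, 15.1, 14.1, 14.0 and 16.1 FPKM in HCC70. Neither line showed a separation by XY018. In the GSK805 pair it was at 63.9 and 55.3 FPKM, several times its level in the other MDA-MB468 table. RPA1 was the subunit with the lowest ratio at 2.5 µM XY018, at -0.32 (-0.40 to -0.24), and RPA2 with GSK805, at -0.56 (-0.83 to -0.31).

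The genes of flap removal and ligation, the steps that join Okazaki fragments, were reduced more with GSK805 than with XY018. FEN1, the flap endonuclease, was at 41.3 FPKM in the MDA-MB468 vehicle, 36.4 with ATV, 28.3 and 28.1 with XY018 at 1.25 and 2.5 µM, and 26.7 with both, a log2 ratio of -0.55 (-0.67 to -0.44) at 2.5 µM, just short of 1.5-fold. With GSK805 it was at 28.6 FPKM against 52.2 in the vehicle, a ratio of -0.87 (-1.04 to -0.70). LIG1, the replicative ligase, had ratios of -0.30 and -0.82, and its difference between antagonists was 0.52 (0.33 to 0.71). In HCC70 FEN1 was at 26.9, 26.2, 25.7, 25.0 and 25.8 FPKM with vehicle, ATV, XY018 at 1.25 µM, XY018 at 2.5 µM and both.

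All 4 genes of deoxynucleotide supply were lower past 1.5-fold with XY018 at 2.5 µM in MDA-MB468, with a median of -0.97. RRM2, the S-phase subunit of ribonucleotide reductase, was the most reduced member with XY018. It was at 40.0 FPKM in the vehicle, 33.5 with ATV, 11.0 and 6.24 with XY018 at 1.25 and 2.5 µM, and 8.26 with both, and thus 6.32-fold lower at 2.5 µM, with a log2 ratio of -2.66 (-2.84 to -2.52). Of all genes compared, 0.285% had a lower ratio. RRM1, the large subunit that is present throughout the cycle, was at 30.7 FPKM in the vehicle and 19.5 at 2.5 µM, a ratio of -0.65 (-0.77 to -0.55), so the partners differed widely. TYMS, thymidylate synthase, was at 107 FPKM in the vehicle and 49.4 at 2.5 µM, although 60.0% of its exon bases are shared with ENOSF1 on the opposite strand. TK1, thymidine kinase of the salvage route, was at 81.6, 74.3, 60.6, 45.9 and 56.3 FPKM with vehicle, ATV, XY018 at 1.25 µM, XY018 at 2.5 µM and both.

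RRM2, TYMS and TK1 were lower past 1.5-fold with GSK805 and RRM1 was not. RRM2 was at 54.3 FPKM in the vehicle and 28.8 with GSK805, a log2 ratio of -0.92 (-1.05 to -0.79), and its difference, XY018 minus GSK805, was -1.75 (-1.95 to -1.54). TK1 was at 92.9 and 42.2 FPKM, a ratio of -1.14 (-1.30 to -0.97). RRM1 was at 64.7 and 59.7 FPKM. In HCC70 RRM2 was at 89.6 FPKM in the vehicle, 80.9 with ATV, 84.1 and 82.8 with XY018 at 1.25 and 2.5 µM, and 64.6 with both, lowest of all members there in the combination, at -0.47 (-0.55 to -0.39). TK1 in HCC70 was at 74.7, 81.0, 85.6, 89.5 and 95.0 FPKM in the same order, higher in each treated library than in the vehicle, with ratios of 0.12 to 0.35.

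**Figure D3:**
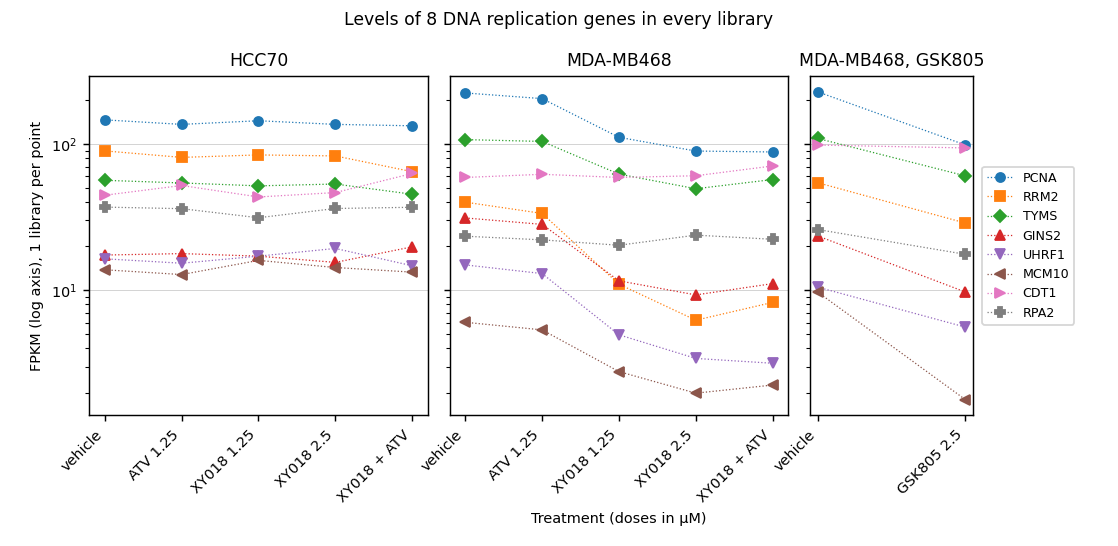
FPKM (log axis) of 8 members in each of the 12 libraries, 1 point per library, in HCC70, MDA-MB468 and the GSK805 pair. RRM2, UHRF1, MCM10, GINS2, PCNA and TYMS are lower in the MDA-MB468 libraries with XY018 than in the other pair (RRM2 6.24 to 11.0 against 33.5 and 40.0), while CDT1 and RPA2 are not, and the HCC70 lines are nearly flat.

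The pair of genes that act on chromatin and turnover were lower past 1.5-fold in each MDA-MB468 library with XY018. UHRF1, which guides DNA methyltransferase to newly copied DNA, was at 14.9 FPKM in the vehicle, 13.0 with ATV, 4.96 and 3.42 with XY018 at 1.25 and 2.5 µM, and 3.17 with both, with a log2 ratio of -2.09 (-2.33 to -1.92) at 2.5 µM. It was at 10.5 and 5.60 FPKM in the GSK805 pair, and at 16.4, 15.3, 17.1, 19.3 and 14.7 FPKM in HCC70 in the order used for MDA-MB468. DTL, the substrate receptor that marks CDT1 for destruction on PCNA, was at 8.93, 7.96, 5.48, 4.54 and 5.56 FPKM in MDA-MB468 and at 12.3, 12.2, 14.2, 14.2 and 14.6 FPKM in HCC70. With GSK805 it was at 9.47 and 8.86 FPKM, a ratio of -0.09 (-0.32 to 0.13).

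ATV alone moved no member past 1.5-fold in either line. In MDA-MB468 the members' log2 ratios with ATV lay between -0.27 (GINS3) and 0.13 (RPA3), with a median of -0.12, and 0 were lower (0.803% of all genes) and 0 higher (1.37%). The counting interval lay below 0 for 17 members, RRM2 among them at -0.25 (-0.34 to -0.17), and above 0 for none. The median of all genes was -0.01, and the share of all genes with such an interval was not computed. In HCC70 the ratios with ATV lay between -0.39 (PRIM2) and 0.22 (CDT1), with a median of -0.09, where 1.32% of all genes were lower and 2.22% higher. The interval lay below 0 for 7 members and above 0 for 1, CDT1.

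Addition of ATV to XY018 at 1.25 µM changed the members little beyond XY018 alone. In MDA-MB468 the median log2 ratio of the combination to XY018 alone was -0.10, and 1 member, UHRF1 at -0.63 (-0.89 to -0.41), was lower past 1.5-fold (1.76% of all genes), with 0 higher (2.10%). RRM2 was lower again at -0.41 (-0.59 to -0.25) and PCNA at -0.33 (-0.41 to -0.25), while CDT1 was at 0.26 (0.19 to 0.33). In HCC70 the median was -0.09, with 0 lower (1.96%) and 0 higher (3.75%), and the range ran from -0.41 for RFC3 to 0.53 for CDT1. CDT1 thus had the highest ratio of combination to XY018 in both lines.

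HCC70 had 0 members past 1.5-fold with XY018 in either direction. At 2.5 µM, 3.26% of all genes in this line were lower and 2.62% higher, and the members' median log2 ratio was 0.00, with a range from -0.24 for RPA3 to 0.52 for GINS4. At 1.25 µM, 2.64% of all genes were lower and 1.93% higher, and the members' median was 0.01. With both compounds, 2.93% of all genes were lower and 4.38% higher, and the members' median was -0.06. The dose order was mixed, with 8 members falling over vehicle, 1.25 and 2.5 µM (23.5% of all genes) and 10 rising (18.4%). All 3 libraries with XY018 lay above both without it for 7 members, MCM4, MCM5, MCM7, GINS4, PRIM1, TK1 and DTL (13.0% of all genes), and below both for FEN1 and TYMS (14.9%).

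The difference between the lines in log2 ratio to their own vehicles at 2.5 µM XY018, MDA-MB468 minus HCC70, had a median of -0.77 over the 39 members, beside 0.03 over all 10856 genes compared in both. It ran from -2.55 for RRM2 to 0.16 for RPA3, and its counting interval lay below 0 for 32 members and above 0 for none. No member was lower past 1.5-fold in both lines, as 0.875% of all genes were. Across the 39 members the ratios of the lines had a Pearson r of -0.03 and a Spearman rho of 0.05, and across all genes Pearson r was 0.12. These are descriptions over genes within 4 libraries, and genes are not independent replicates.

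**Figure D4:**
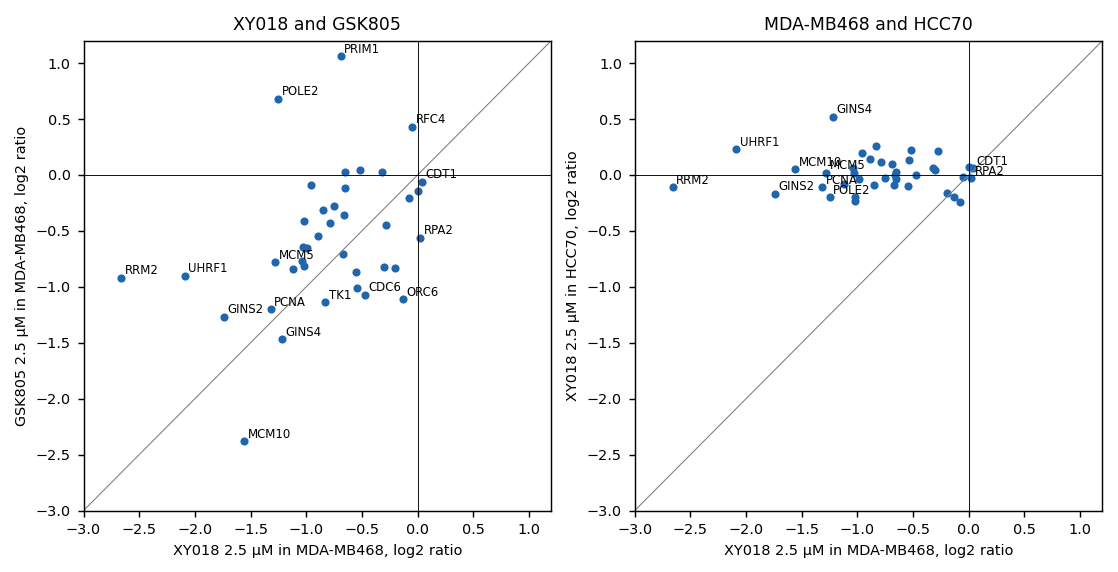
Log2 ratios of the 39 members (1 point each) with XY018 at 2.5 µM in MDA-MB468 on the horizontal axis, against GSK805 at 2.5 µM in MDA-MB468 (left) and XY018 at 2.5 µM in HCC70 (right), with the line of equality in grey. On the left most points lie below 0 on both axes, with PRIM1 at 1.06, POLE2 at 0.68 and RFC4 at 0.43 highest with GSK805, and on the right they form a flat band between -0.24 and 0.52.

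XY018 and GSK805 were compared at 2.5 µM in MDA-MB468, each against its own vehicle library in separately normalized tables. Of the members, 14 were lower past 1.5-fold with both, where 5.00% of all genes were. They made up 56.0% of the 25 lower with XY018 and 70.0% of the 20 lower with GSK805, and comprised MCM2, MCM3, MCM5, MCM10, the 4 GINS genes, POLE, PCNA, RRM2, TYMS, TK1 and UHRF1. Past 1.5-fold with XY018 but not GSK805 were 11 members, among them MCM4, MCM6, CDC45, RRM1 and DTL, and the reverse held for 6, ORC6, CDC6, POLA2, RFC2, FEN1 and LIG1. The remaining 8 were past 1.5-fold in the lower direction with neither. The difference in log2 ratio, XY018 minus GSK805, had a median of -0.31, from -1.93 for POLE2 to 0.98 for ORC6, and its counting interval lay below 0 for 19 members and above 0 for 11. Pearson r across the members was 0.38 and Spearman rho 0.41, and Pearson r over all 11322 genes was also 0.38. Read instead against the vehicle of the XY018 experiment, GSK805 had 12 members lower and 7 higher past 1.5-fold, with a median of -0.29. Of all genes in that reading 9.41% were lower and 49.7% higher, with a median of 0.58.

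The vehicle libraries themselves differed. Between the lines, in tables normalized separately, the members' levels had a median log2 ratio of MDA-MB468 to HCC70 of 0.11 but spread in both directions, and 11 members were lower past 1.5-fold (27.6% of all genes) and 6 higher (32.0%). GINS4 was at 15.8 against 2.05 FPKM, the highest ratio at 2.89, and GINS3 at 8.20 against 18.8, the lowest at -1.19. Between the MDA-MB468 vehicles, that of the GSK805 experiment had 14 members higher past 1.5-fold (48.7% of all genes) and 1 lower (6.49%), ORC1 at 6.92 against 12.0 FPKM. RPA3 at 63.9 against 10.1 and MCM4 at 196 against 46.0 FPKM differed most. Pearson r of the members' log2 levels was 0.81 between the lines and 0.88 between the MDA-MB468 vehicles.

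Other genes of the pathway were read from fixed lists. For MDA-MB468 in what follows, 14.5% of all genes were lower and 14.1% higher with XY018 at 2.5 µM, and 16.6% lower and 17.6% higher with GSK805. Over the names that all 3 tables share, the GSK805 shares were 12.5% and 13.4%. Of 34 further replication genes, 15 were lower past 1.5-fold with XY018 at 2.5 µM in MDA-MB468 and 3 higher, with a median of -0.57. CDC7, the kinase that fires licensed origins, was at -1.17, and the checkpoint adaptor CLSPN at -0.96. With GSK805, 8 of 34 were lower and 0 higher, with a median of -0.23. That share of lower genes was nearer to the share of all genes than with XY018. Of 30 mitotic genes, 17 were lower with XY018 and 0 higher (median -0.63), and 9 were lower with GSK805 (median -0.48). MKI67, the proliferation marker, was at 40.5 FPKM in the vehicle and 17.0 at 2.5 µM XY018, and at 30.9 and 14.0 FPKM in the GSK805 pair. Of 18 recombination and checkpoint genes, 7 were lower and 1 higher with XY018 (median -0.54), and 4 were lower and 2 higher with GSK805 (median -0.27).

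Genes that control S-phase entry were read in the same way. Of 30 E2F and G1/S genes compared with XY018 at 2.5 µM in MDA-MB468, 13 were lower past 1.5-fold and 3 higher (median -0.33). With GSK805 4 of 31 were lower and 4 higher (median 0.09). These GSK805 counts were below the shares of all genes in that table and near those of the names that all 3 tables share. E2F1, an activator of these genes, was at 27.2 FPKM in the MDA-MB468 vehicle, 25.2 with ATV, 13.1 and 10.8 with XY018 at 1.25 and 2.5 µM, and 12.2 with both, and at 22.6 and 10.4 FPKM in the GSK805 pair. In HCC70 it lay between 30.0 and 34.9 FPKM. CCND1, cyclin D1, was at 73.3 FPKM in the MDA-MB468 vehicle and 16.5 at 2.5 µM XY018, but at 167 and 144 FPKM in the GSK805 pair, and CCNE2, cyclin E2, was at 9.52 and 3.16 FPKM with XY018 and 10.8 and 7.83 with GSK805. RB1, the retinoblastoma gene, was at 8.40 to 9.72 FPKM in HCC70 and 0.200 to 0.430 FPKM in the MDA-MB468 libraries of XY018 and ATV, yet at 3.42 and 3.71 FPKM in the GSK805 pair. The tables list different sets of entries, and the part of the annotation in that gap was not tested. CDKN1A, the p21 inhibitor, was at 11.4 FPKM in the MDA-MB468 vehicle and 24.3 at 2.5 µM XY018, and at 28.2 and 19.7 FPKM in the GSK805 pair, the other direction. Of the 14 p53 target genes, 5 were higher and 1 lower with XY018 and 5 were higher and 0 lower with GSK805, led by GDF15 at 3.76 and 2.46.

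In HCC70 at 2.5 µM XY018, 3.26% of all genes were lower and 2.62% higher. No gene of the other replication, E2F and G1/S, mitosis or recombination lists was past 1.5-fold there. With shares this small, few or none would be past it in lists of this length. Their medians lay between -0.10 and 0.05. The p53 list had 2 of 13 higher there, GDF15 at 1.81 and SESN2 at 0.99. These lists overlap in cell cycle timing with the 39 members and were chosen with earlier results of these data known.

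**Figure D5:**
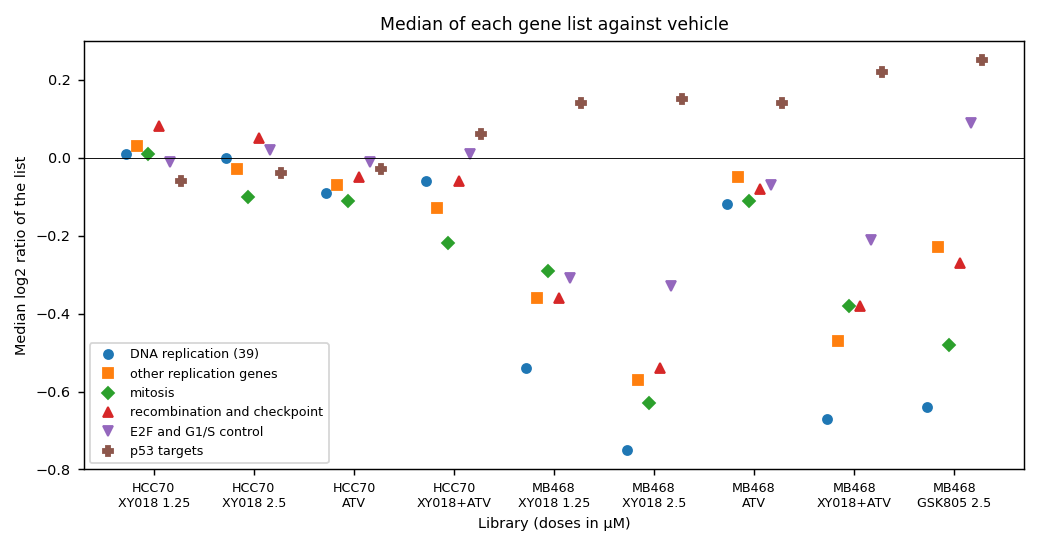
Median log2 ratio to vehicle of the 39 members and of 5 other gene lists (symbols) in each treated library (doses in µM). In MDA-MB468 with XY018 or GSK805 the replication genes have the lowest median of the 6 lists (-0.75 at 2.5 µM XY018), followed by mitotic genes at 2.5 µM (-0.63), while the p53 target list lies above 0.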

How the data were processed

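RNA of 12 libraries of HCC70 and MDA-MB468 cells was prepared with an Illumina TruSeq kit and sequenced by a service provider, and the authors mapped reads to GRCh37/hg19 and quantified genes with a BWA, Bowtie and Cufflinks workflow (versions and strand setting not given in the sources used here). FPKM is the deposited unit, scaled by the authors separately in 3 tables that hold no counts. The unit was taken from the workflow and the column sums. Annotation columns of the tables were not used, and 0 value columns lacked a sample.

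The 39 members and all gene lists were chosen with earlier results of these data known. Log2((treated + 0.1)/(vehicle + 0.1)) was computed within each table in Python 3.11.15 with pandas 2.3.3, numpy 2.4.6 and scipy 1.17.1, where the treated or the reference library reached 1 FPKM. Where a symbol had several entries the one with the highest mean was kept. With 1 library per condition no test was run, and nothing says whether a library pooled cultures. Members are named by role. Values in every library are given for the member of each role with the largest median absolute ratio and for the 3 highest and 3 lowest of each line, and for some others chosen after their values were seen. Other lists are described by counts, medians and up to 4 genes of largest ratio, plus 12 genes allowed in advance, E2F1 and RB1 among them.

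Depth was estimated from the spacing of low FPKM values over genes with a single annotated transcript, trying 13 offsets to the length of up to 240 nt. At the chosen depth, 48.3 to 81.2% of such values lay within 0.1 of a whole fragment, so depths are approximate. Intervals of single ratios are Clopper-Pearson on the estimated fragments, and those of differences between ratios use a normal approximation on the same fragments. The depth estimate and the 1.5-fold call were tested on simulated data, and the coverage of the intervals was not. The simulations used the same transcript lengths and the estimated depths. They cannot show whether those lengths match the ones behind the deposited values. Exon overlaps come from GENCODE on GRCh37, promoter windows from RefSeq on GRCh38.p14. The alternatives were a pseudocount of 1 or 0.01, no filter or a filter at 5 FPKM, centring on the median gene of the table or of names shared by the tables, adding entries of a symbol, and the other MDA-MB468 vehicle for GSK805. The summed immune marker list is not reported here.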

Additional observations from a re-analysis of the deposited data

Results flagged for a closer look

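For 9 of the 39 members all 3 HCC70 libraries with XY018 lay above their vehicle and all 3 MDA-MB468 libraries with XY018 below theirs. The share of all genes with this pattern was not counted. In MDA-MB468 alone, 36 to 38 members lay below the vehicle in each library with XY018. The pattern thus turned mostly on HCC70, where the members' medians with XY018 were -0.06 to 0.01. The 3 libraries of a line share 1 vehicle, and the difference between the lines was not tested. Each value here is the log2 ratio at 2.5 µM in HCC70 minus that in MDA-MB468. The helicase subunit GINS4 had the largest, 1.74, with HCC70 ratios of 0.15 to 0.52 and MDA-MB468 ratios of -1.22 to -0.83. A noncoding gene on the opposite strand shares 30.4% of its exon bases, and the part of that gene's reads was not tested. MCM5 differed by 1.30, from ratios of 0.01 to 0.03 in HCC70, all within counting error of 0. DTL differed by 1.16, TK1 by 1.09 and POLE by 1.10. The POLE ratios in HCC70, 0.04 to 0.06, were also all within counting error of 0. MCM4 differed by 0.91, PRIM1 by 0.78 and MCM7 by 0.74. POLD1 differed least, by 0.49, and was past 1.5-fold in neither line.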

How the results depend on the processing

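Of 254 alternative values for the medians and counts, 245 kept their direction and stayed within 1.5 times the count or within the spread allowed for a median. With a pseudocount of 1, members higher with GSK805 numbered 1 instead of 2, members lower at 2.5 against 1.25 µM XY018 in MDA-MB468 numbered 1, and members lower with XY018 plus ATV against XY018 there numbered 0. A filter at 5 FPKM also gave 1 and 0 for the last pair, since POLE2 and UHRF1 were then not compared. Against the vehicle of the XY018 experiment, in which all genes shift to a median of 0.58, GSK805 had a median of -0.29, 12 members lower and 7 higher, the difference XY018 minus GSK805 was -0.65, and CDC6, POLE and RFC2 turned to 0.28, 0.23 and 0.15. Of 2176 single-member values 2143 were unchanged by this measure, 30 moved and 3 turned. No paired analysis was possible because each condition has 1 library and the labels carry no replicate numbers. Depth limits POLE2, ORC6, MCM10, GINS4 and PRIM2, among the members with the fewest fragments, and no library has a replicate to show the spread between cultures.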
